A study of Mus musculus with 70 samples.

Results

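The erythroid genes Hba-a1, Hba-a2, Hbb-bs, Hbb-bt, Alas2, Slc4a1, Car2 and Epb42 were followed in RNA of leukocytes sorted from mouse blood, as 8 of the 52636 genes in the count table, and the question was whether they were higher together after stress. They are listed by name as genes of the red cell lineage, and earlier results of these data were known when the list was made. Mice were C57BL/6J males, 7 to 8 weeks old at the start. CON mice were pair-housed and not stressed, while SUS and RES mice had both been exposed to social defeat on each of 10 days (CSDS), with 10 min per day in the cage of a CD-1 aggressor. Stressed mice with a social interaction ratio under 1 were SUS, and those at or above it RES. The study describes a single protocol of collection, with trunk blood, lysis of red cells and sorting by CD11b, Ly6C, Ly6G, B220 and CD90.2. This panel holds no erythroid marker. Whether the groups were collected and sorted in the same sessions is not stated. The 68 libraries used were of Ly6C-high monocytes (6 each of CON, SUS and RES), Ly6C-low monocytes (4 CON, 6 SUS, 6 RES), B cells (6, 6 and 5) and T cells (6, 6 and 5). Brain stands as the source in the sample labels, whereas the study's methods describe blood. The labels name no mouse, so p-values measure the spread between libraries, which may in part be technical.

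Red cells are filled with hemoglobin, a tetramer of alpha and beta globin chains that each hold a heme. Young red cells, the reticulocytes, leave the bone marrow without a nucleus and still carry globin RNA, which is lost as they mature. Monocytes, B cells and T cells are not known for making hemoglobin, and blood taken for leukocyte sorting is cleared of red cells first.

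Hba-a1 (ENSMUSG00000069919, chr11:32283511-32284465) and Hba-a2 (ENSMUSG00000069917, chr11:32296489-32297298) encode alpha globin and lie in the same cluster on the plus strand. Hbb-bs (ENSMUSG00000052305, chr7:103826534-103828096) and Hbb-bt (ENSMUSG00000073940, chr7:103812524-103813996) encode the adult beta globins, on the minus strand. Alas2 (ENSMUSG00000025270, chrX:150547375-150570638, plus strand) encodes the erythroid form of the first enzyme of heme synthesis. Slc4a1 (ENSMUSG00000006574, chr11:102348824-102366203, minus strand) encodes band 3, the anion exchanger of the red cell membrane, and Epb42 (ENSMUSG00000023216, chr2:121017891-121037072, minus strand) encodes protein 4.2, which binds band 3. Car2 (ENSMUSG00000027562, chr3:14886273-14900770, plus strand) encodes a cytosolic carbonic anhydrase that other tissues use as well. Positions are those of GENCODE M21 on GRCm38. All 8 genes are protein-coding. In transcripts of Hba-a1, 63.3% of all stretches of 100 bases were also found in Hba-a2, and in Hbb-bs 49.7% were found in Hbb-bt, so reads could be split between the copies and the values of a single copy are uncertain. Alas2 lies over its whole length inside the annotated span of Apex2 on the opposite strand, and the strand setting of the counting is not given in the sources used here.

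The bases before the start of the 6 genes found in the RefSeq promoter table (GRCm38.p6) are shown because GATA1, the main transcription factor of the erythroid lineage, binds the letters GATA in a short context. Capitals mark A or T, then GATA, then A or G, on either strand. Only bases ahead of both the RefSeq and the GENCODE start are printed, 5′ to 3′ along the gene. Slc4a1 and Car2 were not in that table.
Hba-a1 (chr11:32283422-32283510, plus strand): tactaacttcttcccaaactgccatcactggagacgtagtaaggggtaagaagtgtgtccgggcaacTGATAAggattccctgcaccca
Hba-a2 (chr11:32296242-32296488, plus strand): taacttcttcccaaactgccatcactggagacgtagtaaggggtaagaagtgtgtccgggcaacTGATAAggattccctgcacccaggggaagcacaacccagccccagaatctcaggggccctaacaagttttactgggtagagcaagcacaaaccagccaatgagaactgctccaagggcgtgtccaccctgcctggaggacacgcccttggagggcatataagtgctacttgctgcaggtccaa
Hbb-bs (chr7:103828097-103828178, minus strand): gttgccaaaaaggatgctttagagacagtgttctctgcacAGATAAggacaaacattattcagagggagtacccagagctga
Hbb-bt (chr7:103813997-103814173, minus strand): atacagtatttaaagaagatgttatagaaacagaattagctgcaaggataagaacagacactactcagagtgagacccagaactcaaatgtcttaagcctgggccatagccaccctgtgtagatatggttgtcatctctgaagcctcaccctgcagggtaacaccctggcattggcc
Alas2 (chrX:150547167-150547374, plus strand): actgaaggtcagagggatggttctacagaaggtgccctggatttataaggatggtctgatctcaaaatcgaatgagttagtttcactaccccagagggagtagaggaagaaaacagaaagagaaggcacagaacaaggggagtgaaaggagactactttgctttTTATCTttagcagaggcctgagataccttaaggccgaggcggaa
Epb42 (chr2:121037073-121037127, minus strand): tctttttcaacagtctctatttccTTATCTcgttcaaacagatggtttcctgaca
Of the 250 bases before the RefSeq start, 5 of the 6 genes held such a match, and 8718 of 32851 promoters in the table did (26.5%). The TGATAA of Hba-a1 lay 178 to 183 bases before the start and that of Hba-a2 181 to 186 bases before it, in windows that were identical over 247 bases. In Hbb-bs the AGATAA lay 205 to 210 bases before the start. Alas2 and Epb42 held AGATAA on the opposite strand, at 81 to 86 and 221 to 226 bases. A match is a description of the letters, and no match in Hbb-bt says only that these letters were not in its window.

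Each library held 19769835 to 67038231 counts on genes. The 8 genes took between 0.0376% and 1.28% of them, with a median of 0.176%, and the globins made up 81.4% to 96.0% of that. Mitochondrial genes took 3.66% to 18.4% of the counts, and Gm23935 and Gm26917, loci rich in ribosomal RNA, 0.395% to 41.0%. In CON libraries, summed B cell markers reached 3885 to 4815 CPM in B cells and at most 22.1 CPM elsewhere, and the T cell markers 1428 to 1714 CPM in T cells and at most 3.75 CPM elsewhere. Markers of Ly6C-high monocytes summed to 4894 to 6144 CPM there and 1894 to 2138 CPM in Ly6C-low monocytes, and those of Ly6C-low monocytes to 1388 to 1736 CPM and 5412 to 7034 CPM. Libraries 52 and 70 went against their labels and were left out. The library labelled as RES B cells (52) held Cd3e at 412 CPM against 5.76 CPM for Cd79a, whereas in the library labelled as RES T cells (70) Cd79a reached 1417 CPM and Cd3e 0.143 CPM.

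Globin RNA was found in every library of every sorted cell type, also in unstressed mice. Levels are given as CPM, a gene's counts relative to the library total, scaled by TMM over the 68 libraries. By their medians in CON mice, the alpha and beta globins were lowest in both monocyte types, higher in T cells and highest in B cells. Hba-a1 ranged from 138 to 530.4 CPM in Ly6C-high monocytes (median 242), from 407 to 1295 CPM in T cells (median 658), and from 561 to 3398 CPM in B cells (median 1323). In the 4 CON libraries of Ly6C-low monocytes it was 607, 96.1, 282 and 244 CPM. No CON library of Ly6C-high monocytes reached the lowest B cell library, whereas 2 of them lay inside the range of T cells.

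**Figure D1:**
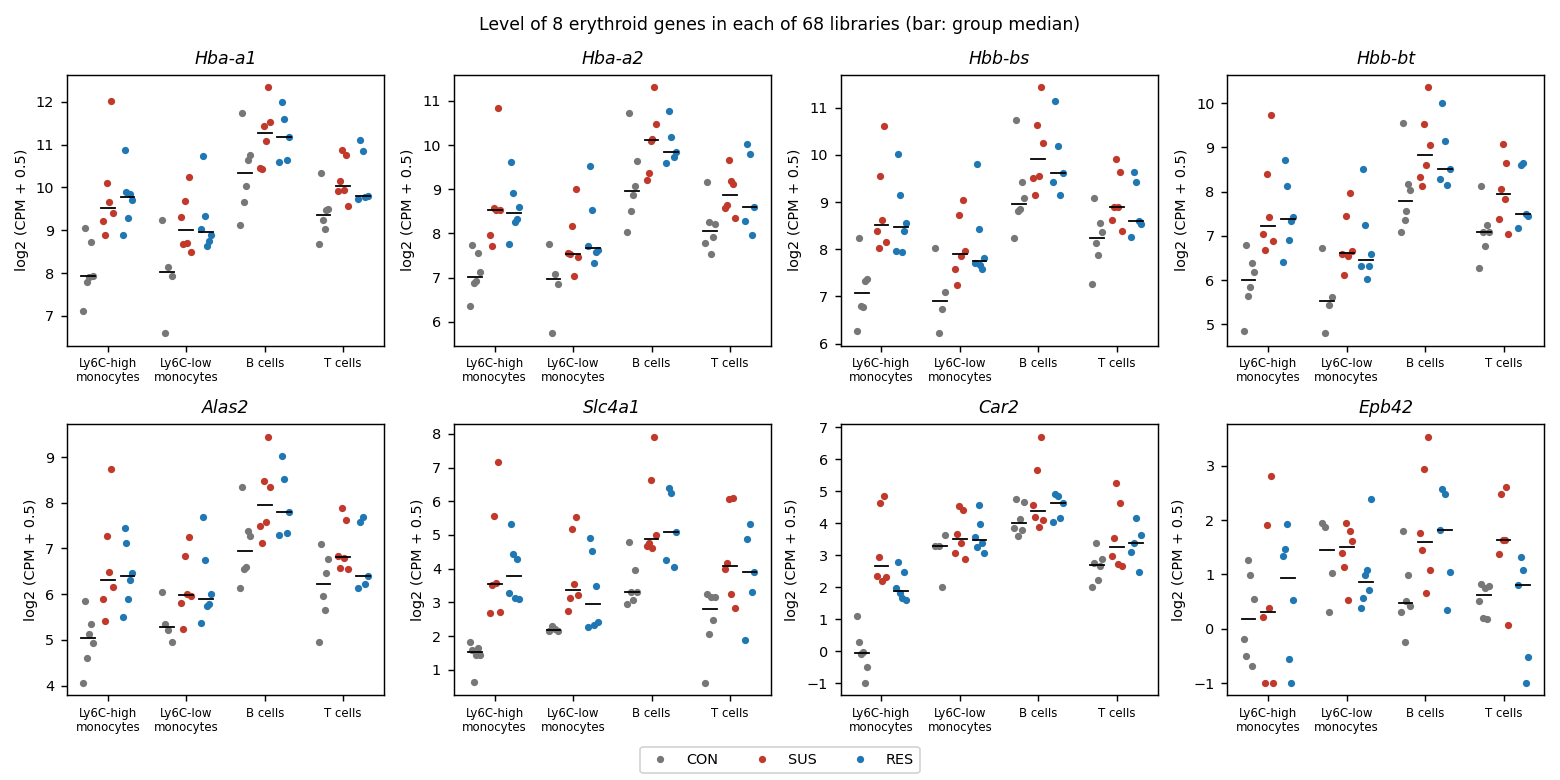
Level of each gene in the 68 libraries, as log2 of CPM + 0.5 on the y axis, by sorted cell type on the x axis, with dots for libraries coloured by group and bars for group medians. For Hba-a1, medians in CON mice were 242 CPM in Ly6C-high monocytes and 1323 CPM in B cells, and for Car2 every CON library of Ly6C-high monocytes lies below every other library of any type.

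Calls needed both an absolute log2 fold change above 1 and an adjusted p under 0.05 by edgeR's quasi-likelihood test. Between CON Ly6C-high monocytes and B cells, 7 of the 8 genes were called, all lower in the monocytes, where 33.1% of all genes tested were called in either direction. The log2 differences of the globins lay between -2.32 and -2.12, that of Alas2 was -2.13 ± 0.41 (SE), that of Slc4a1 -2.43 ± 0.43 and that of Car2 -4.89 ± 0.59. Compared with T cells, 6 genes were lower in Ly6C-high monocytes (background 32.8%). Hbb-bs at -1.06 (adjusted p = 0.0550, edgeR) and Epb42 at -0.20 were not called. Without T cell library 56, the CON library with the most Hba-a1, 2 genes were called (background 31.9%).

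Car2 stood apart from the rest in CON monocytes. It was 0.464 CPM (median, range 0 to 1.64) in Ly6C-high monocytes and 9.31, 9.25, 3.49 and 11.8 CPM in the 4 Ly6C-low libraries. Of the 8 genes, Car2 alone was called between the monocyte types, at -3.86 ± 0.59 on the log2 scale (adjusted p = 2.66e-05, edgeR; background 11.2%). The globins differed by -0.05 to 0.24 there. Between Ly6C-low monocytes and B cells, 6 genes were lower in the monocytes, without Car2 and Epb42 (background 30.3%). Against T cells, Hbb-bt was the only call, at -1.40 ± 0.52 (adjusted p = 0.0375, edgeR; background 28.5%), and 0 to 4 genes were called when a library was left out. B cells had more Slc4a1 (1.05 ± 0.41, adjusted p = 0.0492, edgeR) and Car2 (1.52 ± 0.51, adjusted p = 0.0233, edgeR) than T cells, with a background of 20.2%. With library totals in place of TMM neither was called. Without T cell library 56, 7 genes were called in that pair (background 19.4%).

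Levels of the genes can be set side by side per kilobase (kb) of exon. In CON Ly6C-high monocytes the medians were 298 CPM per kb for Hba-a1, 194 for Hba-a2, 176 for Hbb-bs and 91.8 for Hbb-bt. Alas2 had 13.4 CPM per kb, and Slc4a1 (0.486), Car2 (0.192) and Epb42 (0.124) were all under 1 CPM per kb.

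In Ly6C-high monocytes of SUS mice, 7 of the 8 genes rose, and 3.45% of the 16955 genes tested were called in SUS vs. CON mice in either direction. In sorted bulk RNA, more cells that carry a transcript and more of it per cell cannot be told apart. The globins and Alas2 rose by 1.95 to 2.12 on the log2 scale, Slc4a1 by 4.03 and Car2 by 4.35. The median log2 fold change over the 8 genes was 2.07, against -0.05 over all genes tested.

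Hba-a1 was 138, 530.4, 221, 238, 420.5 and 246 CPM in CON libraries 1, 4, 7, 10, 13 and 16. In SUS libraries 2, 5, 8, 11, 14 and 17 it was 590.2, 475, 1097, 807, 4174 and 677 CPM. The groups overlapped, since 1 SUS library lay under the highest CON library, and library 14 stood far above the rest. The log2 fold change was 2.12 ± 0.53 (SE; adjusted p = 0.0150, edgeR). Hba-a2 rose by 1.99 ± 0.50, Hbb-bs by 1.95 ± 0.50 and Hbb-bt by 2.09 ± 0.55 on the log2 scale. In SUS libraries Hbb-bs ranged from 259 to 1566 CPM (median 364), in CON libraries from 76.0 to 301.3 CPM (median 135).

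Alas2 had a change close to those of the globins. It ranged from 16.1 to 57.0 CPM in CON libraries (median 32.3) and from 41.9 to 426 CPM in SUS libraries (median 79.9). Of the 6 SUS libraries, 5 were above every CON library, and the log2 fold change was 2.05 ± 0.52 (adjusted p = 0.0164, edgeR).

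Slc4a1 and Car2 did not overlap between SUS and CON libraries, and in 4.68% of all genes tested every SUS library lay above every CON library, while 3.45% were called. Slc4a1 was 3.03, 2.51, 1.05, 2.24, 2.60 and 2.22 CPM in the CON libraries and 5.94, 11.0, 46.4, 11.3, 143 and 6.12 CPM in the SUS libraries. It rose by 4.03 ± 0.78 on the log2 scale (adjusted p = 0.00313, edgeR). Car2 was 1.64, 0.717, 0.441, 0.488, 0 and 0.204 CPM in CON and 4.59, 7.26, 24.1, 4.09, 28.4 and 4.47 CPM in SUS libraries. Its log2 fold change of 4.35 ± 0.73 was the largest of the 8 genes (adjusted p = 0.00144, edgeR), from CON counts of 0 to 57 reads per library.

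Epb42 was near the limit of detection. It had 0 to 218 counts in the SUS libraries, with 2 of them at 0, and 5 to 69 in the CON libraries. The log2 fold change of 1.14 ± 1.21 was not called (adjusted p = 0.599, edgeR). DESeq2 also called 7 of the 8 genes in SUS mice (background 4.50%).

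Library 14 weighed on the size of these changes. Without this library, 5 genes were called (Hba-a1, Hba-a2, Alas2, Slc4a1 and Car2; background 1.64%), with Hba-a1 at 1.22 and Slc4a1 at 2.72 on the log2 scale. When libraries 6 and 14, those with the most Hba-a1, were left out together, which was added after the data were seen, all genes but Epb42 were called (background 1.69%), Hba-a1 and Alas2 at 1.22, Slc4a1 at 2.72 and Car2 at 3.83.

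**Figure D2:**
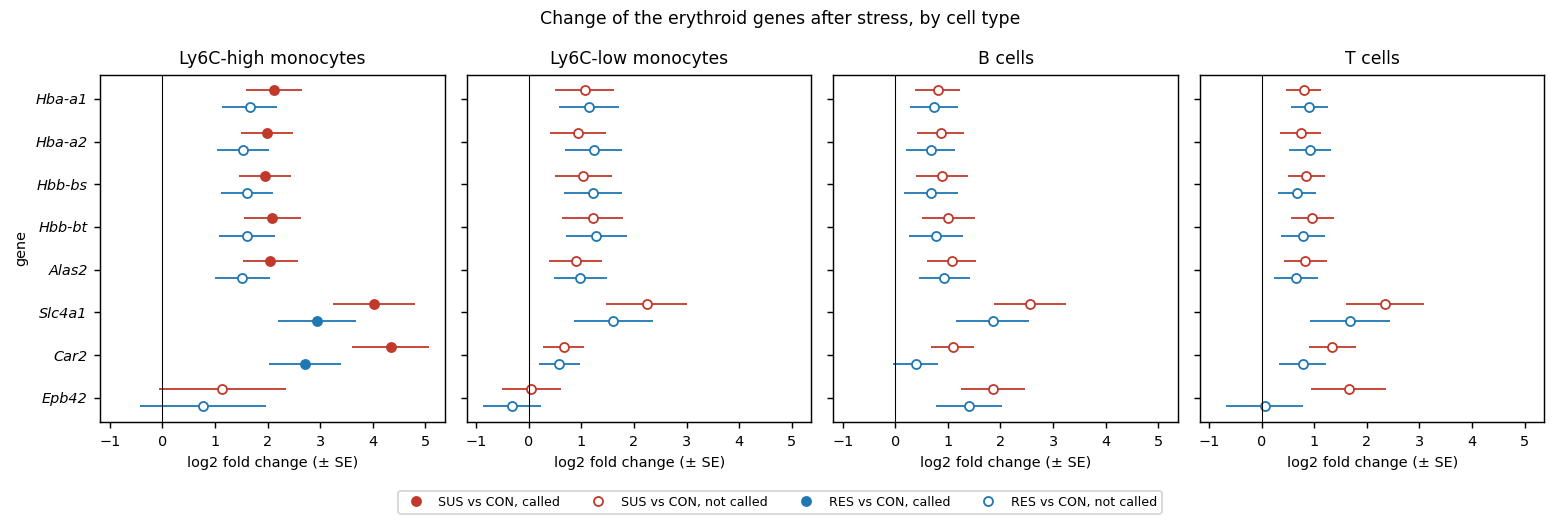
Log2 fold change (x axis) with its standard error (bars) for each gene (y axis) in SUS vs. CON (red) and RES vs. CON mice (blue), in the 4 sorted cell types, with filled dots for called genes and open dots for the rest. The 7 filled red dots and 2 filled blue dots are all in Ly6C-high monocytes, and Slc4a1 has the largest SUS value in each of the other cell types.

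RES mice were compared with the same CON libraries, so the contrasts are not independent. In Ly6C-high monocytes Slc4a1 and Car2 rose and the other 6 genes were not called, at a background of 0.997%. Slc4a1 was 9.20, 39.6, 21.2, 8.24, 19.2 and 8.12 CPM in RES libraries 3, 6, 9, 12, 15 and 18, each above every CON library, with a log2 fold change of 2.94 ± 0.74 (adjusted p = 0.0322, edgeR). Car2 was 3.41, 6.45, 3.01, 2.69, 5.06 and 2.54 CPM, again above every CON library, at 2.71 ± 0.69 (adjusted p = 0.0270, edgeR). Hba-a1 was 474, 1889.6, 948, 627, 925 and 834 CPM. Its log2 fold change of 1.66 ± 0.52 did not pass (adjusted p = 0.0740, edgeR), and the other globins and Alas2 lay between 1.52 and 1.61, with adjusted p between 0.0668 and 0.0945 (edgeR). Hba-a2 had no RES library at or below a CON library. In 2.85% of all genes tested every RES library lay above every CON library. The median over the 8 genes was 1.61, against -0.03 over all genes.

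The count of 2 depended on the fit and on single libraries. DESeq2 called 7 genes (1.78% of all genes), as did edgeR on the RES and CON libraries alone (1.67%), without SUS library 14 (2.05%) or without libraries 6 and 14 (2.53%). The count was 0 without CON library 4, 7, 10 or 16 or RES library 9, 15 or 18, and 1 without CON library 1 or 13 or RES library 6.

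Between SUS and RES mice, 0 of the 8 genes were called in Ly6C-high monocytes by edgeR and by DESeq2, and 0% of all genes were called (620 of 16955 genes at an unadjusted p under 0.05, of the 8 only Car2). Log2 differences ran from 0.34 for Hbb-bs to 1.64 for Car2, with standard errors from 0.48 to 1.20. Without library 14 the values of all genes but Car2 were below 0, from -0.70 to -0.19.

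In the other 3 cell types 0 of the 8 genes were called in either contrast by edgeR. In SUS vs. CON mice 0.0871% of all genes were called for Ly6C-low monocytes, 0.00568% for B and 0.0265% for T cells, and in RES vs. CON mice 0.0154%, 0% and 0%. The values of the 8 genes were above 0, other than Epb42 in Ly6C-low monocytes of RES mice (-0.32). An unadjusted p under 0.05 was found for 1, 4 and 6 of the 8 genes (SUS) and for 4, 2 and 3 (RES), in the same order of cell types. Over all genes tested, 9.51%, 3.42% and 4.80% had such a p for SUS, and 9.67%, 3.18% and 4.11% for RES. DESeq2 called 1 gene in B cells of SUS mice, where it called 0.148% of all genes, and 0 in the rest. SUS vs. RES mice gave 0 calls in each of these types by both tools, at 0%, 0% and 0% of all genes, and of the 8 only Epb42 in T cells had an unadjusted p under 0.05, against 3.79%, 1.36% and 2.39% of all genes.

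Globin log2 fold changes were 0.74 to 1.21 in SUS and 0.67 to 1.28 in RES mice over these 3 types, with standard errors of 0.34 to 0.58. Hba-a1 in B cells ranged from 1369 to 5209 CPM in SUS libraries (median 2471) and was 1546, 4078, 3092, 1585 and 2319 CPM in the RES libraries. The CON range of 561 to 3398 CPM covered these libraries apart from SUS library 48 and RES library 40. In T cells Hba-a1 ranged from 754 to 1879 CPM in SUS libraries (median 1056), and 2 of the 6 lay above the highest CON library.

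Slc4a1 had the largest SUS value of the 8 genes in each of these types. In the 4 CON libraries of Ly6C-low monocytes it was 3.99, 4.41, 4.09 and 3.90 CPM, and all 6 SUS libraries lay above, from 6.22 to 46.2 CPM (median 9.97). The same held for 1.13% of all genes tested. The log2 fold change was 2.24 ± 0.77 and was not called (adjusted p = 0.319, edgeR). In B cells it ranged from 7.19 to 26.9 CPM in CON and from 23.7 to 241 CPM in SUS libraries, at 2.57 ± 0.69 (adjusted p = 0.807, edgeR). In T cells it ranged from 1.02 to 8.95 CPM in CON and from 6.59 to 67.6 CPM in SUS libraries, at 2.34 ± 0.75 (adjusted p = 0.566, edgeR). RES values of Slc4a1 were 1.61, 1.85 and 1.67 in the same order. Car2 had log2 fold changes of 0.66 ± 0.39, 1.09 ± 0.41 and 1.34 ± 0.44 in SUS mice, none of them called. Over the 8 genes the medians were 0.98, 1.04 and 0.90 in SUS mice.

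Whether the change in Ly6C-high monocytes differed from that in other cells was tested as an interaction, called at an adjusted p under 0.05. The fit treated libraries of different cell types as independent, and the labels do not say whether they share mice. For SUS vs. CON mice, Car2 passed against each of the other types and no other gene did. The difference in log2 fold change was 3.73 ± 0.79 against Ly6C-low monocytes (adjusted p = 0.0231, edgeR; background 0.363%), 3.30 ± 0.76 against B cells (adjusted p = 0.00582, edgeR; background 6.18%) and 3.04 ± 0.76 against T cells (adjusted p = 0.0211, edgeR; background 3.22%). Against Ly6C-low monocytes the call was lost without CON library 21 or 24. With only the 2 cell types in the fit, it was lost there and against T cells. Slc4a1 differed by 1.79, 1.47 and 1.68, and the globins by 0.88 to 1.33, none of them called. For RES vs. CON mice 0 of 8 genes passed in each of the comparisons (backgrounds 0.0990%, 1.65% and 0.713%), with Car2 at 2.14, 2.36 and 1.95.

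**Figure D3:**
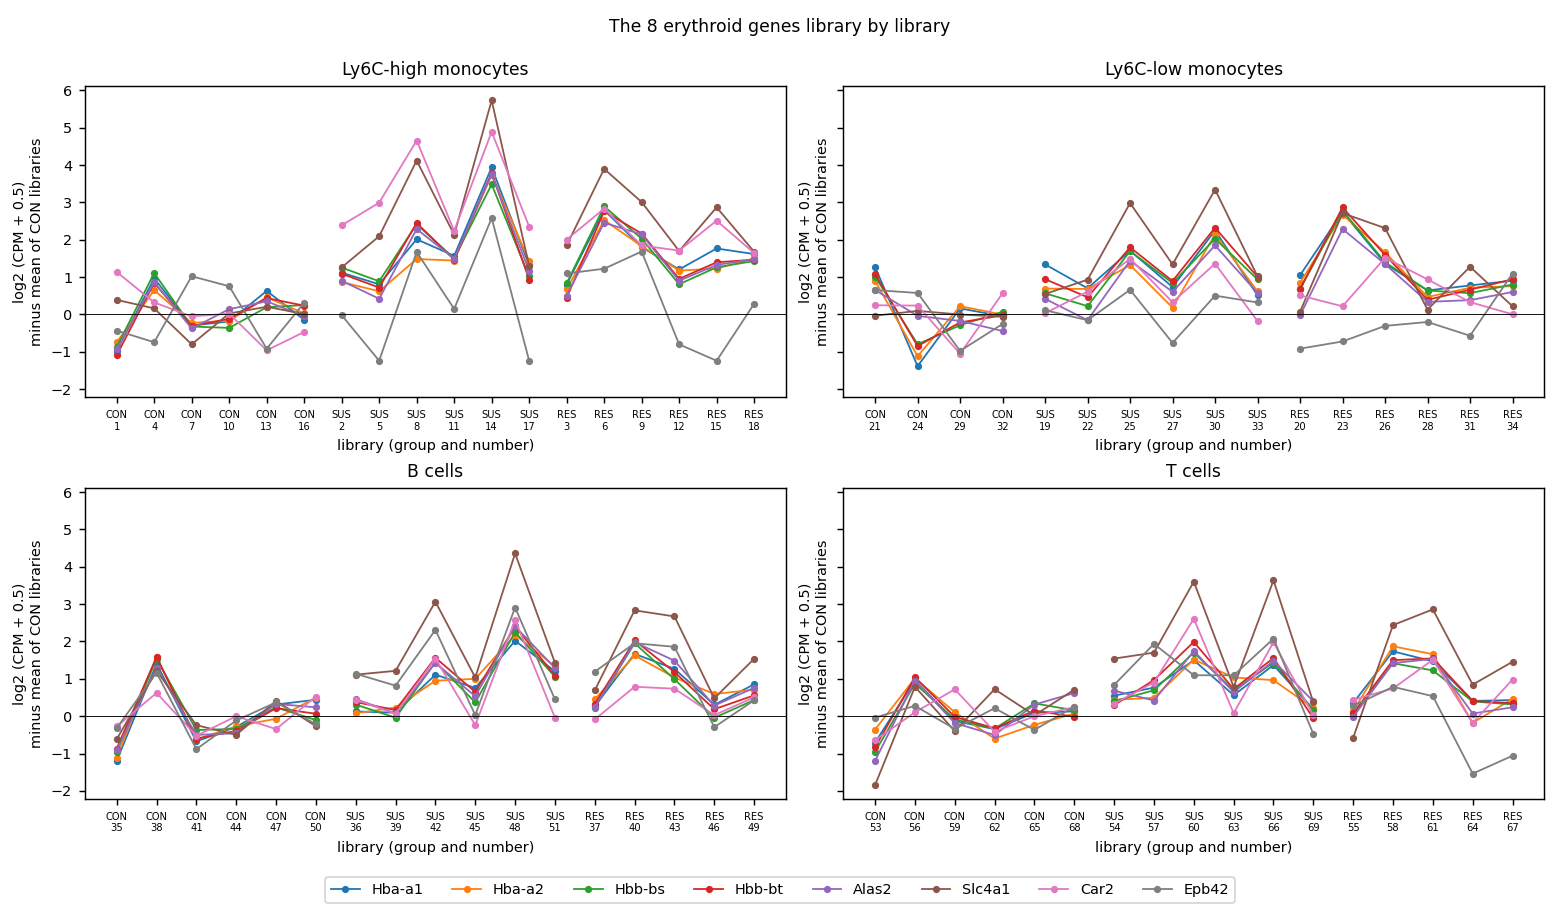
Log2 of CPM + 0.5 minus the mean of the CON libraries (y axis) for each library by group and number (x axis), with 1 line per gene and 1 panel per cell type. Most lines run close together within a group, with peaks at libraries 14 and 8 in SUS Ly6C-high monocytes, whereas those of Epb42, and of Car2 in Ly6C-low monocytes, run apart.

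The genes moved together from library to library, also when the difference between groups was removed. Each gene's log2 CPM was centred on its group mean, and all 28 pairs were correlated over the libraries of each cell type, 112 pairs in all, with permutations within groups and Benjamini-Hochberg adjustment over the 112. Every pair had a positive r in each cell type. Median r was 0.800 for Ly6C-high monocytes (n = 18), 0.666 for Ly6C-low monocytes (n = 16), 0.873 for B (n = 17) and 0.787 for T cells (n = 17). An adjusted permutation p under 0.05 was reached by 20, 15, 28 and 22 of the 28 pairs for Pearson's r and by 16, 13, 26 and 22 for Spearman's rho. The median r of the 8 genes with all other genes was -0.04, -0.00, -0.04 and -0.01.

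Globins and Alas2 were the tightest group. Hba-a1 and Alas2 had r = 0.963 and rho = 0.973 in Ly6C-high monocytes (permutation p = 1e-05 for both, the smallest that the permutations can give, adjusted 4.15e-05 and 4.67e-05), and r = 0.917 without libraries 6 and 14. The r of this pair was 0.760 for Ly6C-low monocytes, 0.966 for B and 0.941 for T cells. Hba-a1 and Hba-a2, whose reads could be shared, had r = 0.972 in Ly6C-high monocytes, and Hba-a1 and Hbb-bs, which share no cluster, 0.940.

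Slc4a1 followed more loosely. With Hba-a1 it had r = 0.793 and rho = 0.645 in Ly6C-high monocytes (permutation p = 0.00121 and 0.00949, adjusted 0.00215 and 0.0163), and r fell to 0.407 without libraries 6 and 14. In B and T cells r was 0.808 and 0.827, and 0.827 and 0.879 without the 2 farthest libraries. Ly6C-low monocytes had r = 0.602 and rho = 0.509 (permutation p = 0.00427 and 0.0473, adjusted 0.00638 and 0.0638), so rho did not pass there.

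Car2 and Epb42 were the exceptions in both monocyte types, and Epb42 in T cells. In B cells all 28 pairs passed by Pearson's r. Car2 and Hba-a1 had r = 0.679 in B cells and 0.670 in T cells. In Ly6C-high monocytes Car2 had r = 0.479 and rho = 0.327 with Hba-a1 (permutation p = 0.0998 and 0.237, adjusted 0.115 and 0.274), and without libraries 6 and 14 r was -0.05. It stayed with Slc4a1 there, at r = 0.822 and rho = 0.711 (permutation p = 0.00108 and 0.00381, adjusted 0.00198 and 0.00723), and r = 0.712 without libraries 2 and 14. In Ly6C-low monocytes all 13 pairs that did not pass held Car2 or Epb42, as did all 8 in Ly6C-high monocytes, and all 6 in T cells held Epb42. Without the 2 libraries farthest from the median of the first gene, median r was 0.478, 0.576, 0.798 and 0.790 in the order above, and 25, 27, 28 and 28 pairs stayed positive. In Ly6C-high monocytes the relation of Slc4a1 and Car2 with the globins thus rested in part on libraries 6 and 14.

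**Figure D4:**
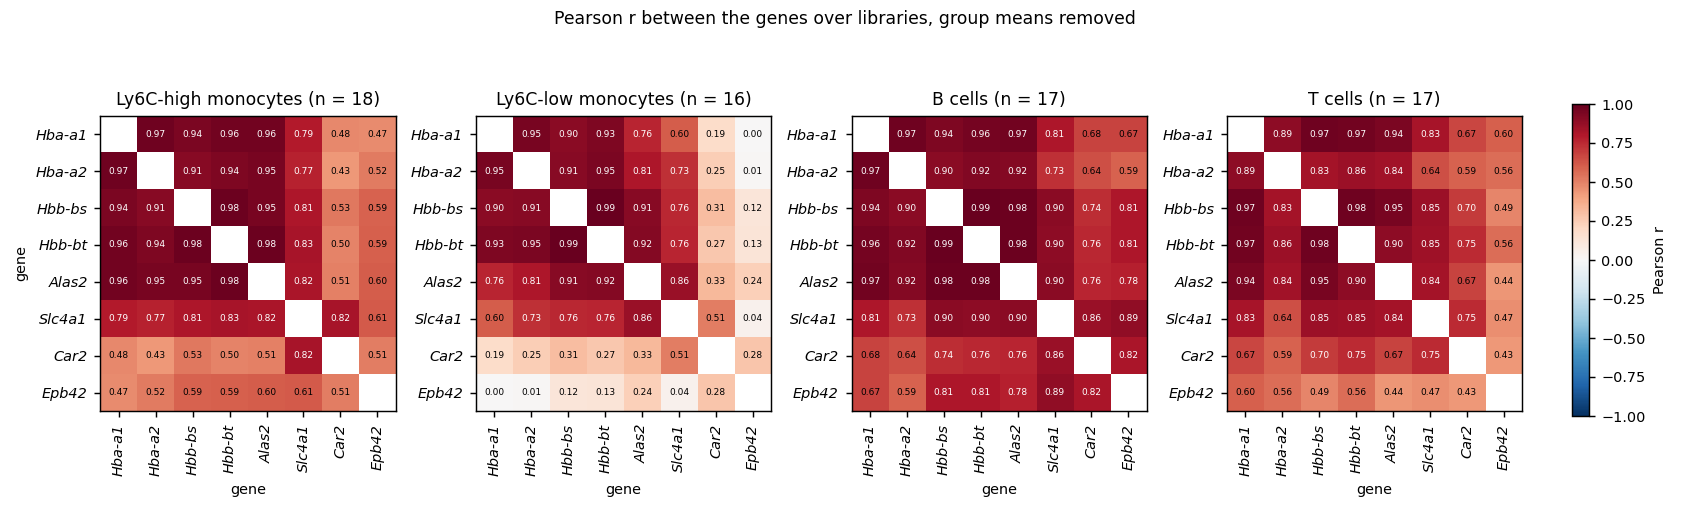
Pearson r for each pair of genes (both axes list the genes) over the libraries of a cell type after group means were removed, on a colour scale from -1 to 1. The block of globins and Alas2 lies between 0.76 and 0.99 in all cell types, and Epb42 in Ly6C-low monocytes lies between 0.00 and 0.28.

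Ratios of raw counts within a library, which need no scaling between libraries, showed which genes kept step. They are given as a description, without a test. Per 100 counts of Hba-a1, the group medians of Alas2 lay between 8.58 and 13.2 over all 12 groups. Single libraries ranged from 7.50 (CON T cells) to 42.1 (CON Ly6C-low monocytes). The group medians of Hbb-bt per 100 Hbb-bs lay between 38.7 and 48.9, with single libraries from 32.3 to 57.9. Those of Hba-a2 per 100 Hba-a1 lay between 38.8 and 51.6, with single libraries from 28.2 to 59.0.

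Slc4a1 per 100 Alas2 varied more between groups than the ratios above. With group means removed, Alas2 and Slc4a1 still moved together, at r = 0.818 and 0.863 in Ly6C-high and Ly6C-low monocytes. For B and T cells r was 0.904 and 0.835. Without libraries 6 and 14 it was 0.543 in Ly6C-high monocytes. In Ly6C-high monocytes there were 4.37 to 18.8 counts of Slc4a1 per 100 of Alas2 in CON libraries (median 6.51), 8.65 to 33.5 in SUS (median 19.5) and 9.22 to 24.2 in RES libraries (median 17.9). Medians for CON, SUS and RES mice were 11.0, 19.8 and 12.5 (Ly6C-low monocytes), 8.75, 16.6 and 15.1 (B cells) and 6.20, 15.9 and 15.3 (T cells). Both stressed groups had a higher median than CON in each cell type, and the ranges overlapped in each. The overlap was narrow in B cells, where the highest CON library had 10.2 and the lowest SUS library 9.72.

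Car2 per 100 Alas2 had another pattern. The median was 1.34 in CON Ly6C-high monocytes (range 0 to 10.2), 7.25 in SUS and 4.14 in RES mice. In CON mice it was 18.5 for Ly6C-low monocytes, 14.2 for B cells and 7.52 for T cells, and stressed groups lay between 8.46 and 20.0.

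**Figure D5:**
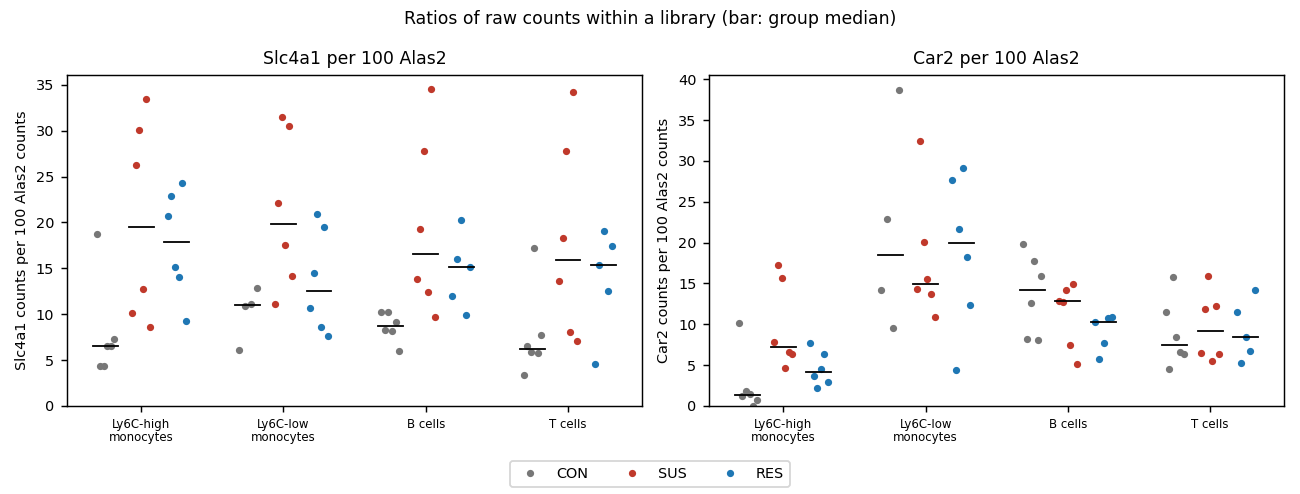
Raw counts of Slc4a1 (left) and Car2 (right) per 100 counts of Alas2 in each library (y axis) by cell type (x axis) and group (colour), with dots for libraries and bars for group medians. For Slc4a1 the median was 6.51 in CON and 19.5 in SUS mice in Ly6C-high monocytes, and for Car2 1.34 and 7.25.

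Other red cell genes were compared in Ly6C-high monocytes, first for SUS vs. CON mice. None of the 6 embryonic and theta globin genes listed passed the filter, and all of them were at 0 in every CON library. Ahsp, which was listed with them but is not a globin gene, was not matched by its symbol and was not analysed here. Of 4 tested of 6 red cell enzymes, Bpgm, which makes 2,3-bisphosphoglycerate, rose by 1.50 ± 0.38 (adjusted p = 0.0121, edgeR) and Prdx2, a peroxiredoxin that is abundant in red cells, by 1.26 ± 0.22 (adjusted p = 0.00144, edgeR). Among late erythroid genes Ube2o, a ubiquitin ligase of reticulocytes, rose by 1.20 ± 0.37 (adjusted p = 0.0375, edgeR).

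Genes of heme synthesis and erythroid regulators were not called. For the 11 heme synthesis genes other than Alas2, 10 values were above 0 and the median was 0.68. Of 8 regulators 5 were tested, with a median of -0.29. Gata1 was at 0 in every CON library and at most 1.87 CPM in SUS libraries, and Klf1, another erythroid transcription factor, was at most 0.686 CPM in any Ly6C-high library. In RES vs. CON mice Bpgm (1.32 ± 0.38) and Prdx2 (1.08 ± 0.22) rose and no late erythroid, heme synthesis or regulator gene was called. In the other cell types none of the genes named here was called in either contrast.

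Markers of other blood cells moved as well, and their part in the result was not tested. Of 10 platelet markers 2 rose in Ly6C-high monocytes of SUS mice, the chemokine gene Ppbp by 2.31 ± 0.70 (adjusted p = 0.0326, edgeR) and Tubb1 by 1.73 ± 0.51 (adjusted p = 0.0269, edgeR), and the median over the list was 1.40. Their summed level was 12.5 to 20.0 CPM in CON, 14.5 to 69.6 CPM in SUS and 14.5 to 37.9 CPM in RES libraries. Of 9 neutrophil markers tested none was called, with a median of 1.21 and sums of 365 to 935 CPM in CON, 529 to 2230 CPM in SUS and 459 to 1397 CPM in RES libraries. Of 5 markers of Ly6C-high monocytes themselves, Cd14 rose by 1.48 ± 0.31 and Chil3 by 1.31 ± 0.19, and the list summed to 4894 to 6144 CPM in CON and 7648 to 10088 CPM in SUS libraries. B cell markers summed to 4.53 to 18.6 CPM in CON and 5.21 to 9.82 CPM in SUS libraries, and T cell markers to at most 2.93 CPM. Gm23935 and Gm26917 took 0.739% to 8.03% of counts in CON, 1.29% to 18.8% in SUS and 1.60% to 16.2% in RES libraries of this type. The summed level of the 8 genes was 345 to 1216 CPM in CON, 1105 to 9023 CPM in SUS and 1083 to 4357 CPM in RES libraries.

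The genes most like the 8 in their course over libraries, by median r after group means were removed, are given as a description. In Ly6C-high monocytes (18 libraries) the 10 most alike were led by Epb41 (0.864), which encodes protein 4.1 of the red cell skeleton, and Bpgm (0.863), and also held Gm29257, Tent5c (0.819), Marc2, Gm10093, Fbxl6, Gm4613 and 1700064H15Rik. In Ly6C-low monocytes (16 libraries) Bpgm (0.901) and Epb41 (0.900) led, and Tent5c, Slc25a37, Gm12304, Rsad2, Ube2l6, Map3k20 and Apol11b were also among them. Those of B cells (17 libraries) included Tent5c (0.940), Cdr2, Ube2l6, Bpgm, Ube2o, Apol11b, Fech and Rsad2, and those of T cells (17 libraries) included Bpgm (0.899), Ube2l6, Cd24a, Mkrn1, Rsad2, Pck2, Ube2o and Spib. Bpgm was among the 10 most alike in all 4 cell types.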

How the data were processed

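RNA of sorted leukocytes was made into libraries with a SMARTer stranded total RNA kit for low input. The authors mapped reads to mm10 with HISAT2, counted them on Ensembl genes with HTSeq and deposited raw counts, 1 column per library, without normalization. How reads with several matches were treated, and the strand setting, are not given in the sources used here. Of the 52636 genes, 52403 matched GENCODE M21. Of 161 pairs of libraries within groups, 0 were identical. Libraries 52 and 70 were left out.

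Counts were analysed with edgeR 4.0.16 in R 4.3.3 (filterByExpr, TMM, robust quasi-likelihood F test) within each cell type over the 3 groups, over the 22 CON libraries for cell types, and over 12 group means for interactions. P-values were adjusted by Benjamini-Hochberg over all genes tested. Standard errors were taken from the size of the log2 fold change and its F statistic. Levels are CPM, with 0.5 CPM added before a log2. Those of libraries 52 and 70 were scaled together with all 70 libraries. Correlations used 100000 permutations within groups. On simulated data 140, 147 and 126 of 200 changed genes were called in the 3 kinds of fit, with 1, 4 and 10 unchanged ones. All changed genes were given the same size of log2 change, up or down, and genes of low count were not chosen. That change was larger than those of the globins after stress outside Ly6C-high monocytes. The share found for smaller changes or low counts was not tested.

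The genes named are the 8 genes, of each other list up to 4 genes called in SUS vs. CON Ly6C-high monocytes, and the 10 most alike per cell type. Some genes that meet this rule are not reported here. The 8 genes, the lists and the tests were chosen with earlier results of these data known. Alternatives were DESeq2 1.42.0, its size factors, library totals, no filter, fewer groups, other pseudocounts, summed copies, globins left out of totals, adjusted p alone, libraries 52 and 70 kept, and each library left out.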

Additional observations from a re-analysis of the deposited data

Results flagged for a closer look

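Over the 8 genes and 12 groups, 96 groups of libraries were searched for a library far from the others. The search used Dixon's test at 95% on CPM without a log, and 19 were found, in 7 libraries. For normally distributed values chance alone flags about 1 of 20 groups. The values were not logged and the genes moved together, so the 19 cannot be set against that rate. Library 14 (SUS Ly6C-high monocytes) stood above its group for Hba-a1 (4174 CPM), Hba-a2 (1823 CPM), Hbb-bs (1566 CPM), Hbb-bt (856 CPM), Alas2 (426 CPM) and Slc4a1 (143 CPM). Library 6 (RES Ly6C-high monocytes) stood out for Hba-a1 (1889.6 CPM). Library 23 (RES Ly6C-low monocytes) did for Hba-a1 (1692 CPM), Hba-a2 (736 CPM), Hbb-bs (891 CPM) and Hbb-bt (365 CPM), and library 34 of the same group for Epb42 (4.73 CPM). Library 38 (CON B cells) stood out for Hba-a2 (1690.2 CPM), Hbb-bs (1697 CPM) and Hbb-bt (749 CPM), library 48 (SUS B cells) for Slc4a1 (241 CPM) and library 56 (CON T cells) for Hba-a1 (1295 CPM), Hba-a2 (571 CPM) and Hbb-bt (281 CPM).

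The SUS vs. CON change of Car2 differed between Ly6C-high monocytes and the other types, by 3.73 on the log2 scale for Ly6C-low monocytes, 3.30 for B and 3.04 for T cells, by a test of the difference itself. With only the 2 cell types in the fit the calls against Ly6C-low monocytes and against T cells were lost, and that against Ly6C-low monocytes was also lost without CON library 21 or 24.

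Library 70, labelled as RES T cells and left out of all comparisons because it held B cell markers, was above every CON library of its labelled type for all 8 genes, but inside the range of the CON B cell libraries for each of them (561 to 3398 CPM for Hba-a1). It had 2303 CPM of Hba-a1, 971 of Hba-a2, 634 of Hbb-bs, 311 of Hbb-bt, 193 of Alas2, 17.9 of Slc4a1, 18.6 of Car2 and 1.29 of Epb42. These values were scaled by TMM over all 70 libraries and the CON ranges over 68. For Epb42 the margin was small, with 1.26 CPM in the highest CON T cell library.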

How the results depend on the processing

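No paired analysis was possible because each library has a number of its own and the labels name no mouse. The 7 calls in SUS vs. CON Ly6C-high monocytes stayed 7 under every alternative other than leaving out a library, where they were 5 to 7. In RES vs. CON Ly6C-high monocytes, 2 genes were called, but 7 with DESeq2, 7 with only the 2 groups compared, 7 with libraries 6 and 14 left out and 1 without a low-count filter, and 0 to 7 when a library was left out. DESeq2 called 1 gene in SUS vs. CON B cells, where edgeR called 0. Between CON Ly6C-low monocytes and T cells, 1 call became 2 with DESeq2 and 0 with library totals or without a filter (0 to 4 with a library left out). Between B and T cells, 2 calls became 1 with DESeq2 size factors, 0 with library totals and 1 without a filter (1 to 7 with a library left out). Between Ly6C-high monocytes and T cells the 6 calls became 2 to 7, and between Ly6C-low monocytes and B cells 6 to 7, with a library left out. With only the 2 cell types compared, the Car2 interaction in SUS mice against Ly6C-low monocytes and that against T cells fell to 0 calls, and leaving out a library gave 0 to 1 against Ly6C-low monocytes. With libraries 52 and 70 kept, 1 gene passed for RES mice against B cells, against 0. The cause was not tested.

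With group means not removed, median r was 0.901 (Ly6C-high monocytes), 0.732 (Ly6C-low monocytes) and 0.845 (T cells), and with libraries 52 and 70 kept it was 0.905 (B cells). With a library left out it ran from 0.602 (without library 14) to 0.861 for Ly6C-high and from 0.582 (without library 30) to 0.772 for Ly6C-low monocytes, from 0.805 to 0.891 for B cells and from 0.748 to 0.815 for T cells.

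Reversals concerned values that were not called. In SUS vs. RES Ly6C-high monocytes, without libraries 6 and 14, Hba-a1 was -0.10, Hba-a2 -0.15, Alas2 -0.027 and Epb42 -0.53. With 1 library left out, the lowest values there were those without library 14, and the ranges were -0.42 to 0.79 for Hba-a1, -0.44 to 0.74 for Hba-a2, -0.27 to 0.75 for Hbb-bs, -0.31 to 0.82 for Hbb-bt, -0.28 to 0.78 for Alas2, -0.19 to 1.51 for Slc4a1 and -0.70 to 0.78 for Epb42. Epb42 in SUS vs. CON Ly6C-low monocytes was -0.048 with library totals and -0.23 to 0.31 with a library left out, and in RES vs. CON T cells -0.35 to 0.37. Precision is limited by 4 to 6 libraries a group, and for Epb42 and for Car2 in CON Ly6C-high monocytes by low counts.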

Other observations

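With libraries of a group placed by their number, the places of the highest 2 libraries by Slc4a1 in SUS and in RES mice were shared by the 4 cell types, and those in CON mice were not. In SUS mice the highest 2 libraries were 14 and 8 in Ly6C-high monocytes (143 and 46.4 CPM), 30 and 25 in Ly6C-low monocytes (46.2 and 35.8 CPM), 48 and 42 in B cells (241 and 98.4 CPM) and 66 and 60 in T cells (67.6 and 66.0 CPM). These are the fifth and the third by number in each type. In RES mice the highest 2 were 6 and 9 (39.6 and 21.2 CPM), 23 and 26 (29.6 and 22.3 CPM), 40 and 43 (83.7 and 74.7 CPM) and 61 and 58 (39.2 and 29.2 CPM), the second and the third by number in each type. In CON mice the first by number was the highest for Slc4a1 in Ly6C-high monocytes (3.03 CPM) and the lowest in B (7.19 CPM) and T cells (1.02 CPM). By Hba-a1, however, the second by number was the highest CON library in Ly6C-high monocytes (530.4 CPM), B cells (3398 CPM) and T cells (1295 CPM). The same libraries were highest for Hba-a2, Hbb-bs, Hbb-bt and Alas2. In Ly6C-low monocytes, with only 4 CON libraries, the first by number was the highest for these genes (607 CPM of Hba-a1). Numbers of this type start with SUS library 19 and RES library 20, whereas those of the other types start with a CON library. Places among its CON libraries may therefore not correspond to those in the other types. These orders were seen after the values of the genes were known. The labels name no mouse, and whether libraries at the same place came from the same mouse was not tested.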
